A study of Mus musculus with 12 samples.

Results

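Granzymes and mast cell proteases are serine proteases that cytotoxic lymphocytes, mast cells and basophils store in granules. The 6 genes described here are Gzmb, Gzmc, Gzmd, Gzme, Gzmf and Mcpt8, taken by name from the 53819 genes of the count table. They were chosen by their per-library counts in the 4 groups, which earlier results of these data had shown in sorted marrow stromal cells with few leukocyte transcripts. Their levels in the marrow libraries are therefore a description, and a test is given only for depletion of bone-associated cells, the only comparison that uses no marrow library. The bone-associated counts were known at that choice too, so this test is not independent of it. Of the 6 genes, 5 passed the filter on low counts. Gzmf did not, with 7 counts in all 12 libraries, so the data go against counting it among granzymes expressed in marrow stroma.

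Gzmb encodes granzyme B, which cytotoxic T and natural killer (NK) cells release together with perforin and which cleaves target proteins after aspartate. Gzmc, Gzmd, Gzme and Gzmf encode granzymes C to F, a rodent group with no direct human counterparts that is best known from activated mouse lymphocytes and from NK cells of the pregnant uterus. Mcpt8 encodes mast cell protease 8, which in the mouse is known as a basophil protease. All are made as inactive precursors from which cathepsin C, encoded by Ctsc, removes a dipeptide.

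Bulk RNA was sequenced from wild-type mouse cells in 4 groups of 3 libraries. BM sorted cells were adherent marrow cells of hind limbs and pelvis, grown on collagen I through a first passage and sorted by flow cytometry as CD51+ Sca-1+ and CD45- Ly6C- F4/80- (the design text adds CD31-). BM nonsorted cells came from the same kind of culture without the sort. BAC depleted cells were bone-associated cells released from hind-limb bone fragments by collagenase I, from which CD45+, Ly6C+ and F4/80+ cells had been taken out magnetically. BAC nondepleted cells were the same kind of preparation without that step. The growth protocol gives one medium, alpha MEM without ascorbic acid with 10% serum, under hypoxia. The labels do not state strain, age, sex, how long bone cells were cultured, or whether numbered libraries are separate animals, so p-values measure only the spread between these samples. The marrow and bone groups differ in tissue, isolation and selection at once, and these cannot be told apart. In bulk RNA, fewer cells of a type and less RNA per cell cannot be told apart either.

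Libraries held 27937709 to 32164725 counts. BAC depleted libraries were the least alike, with correlations of log2 CPM of 0.940 to 0.947 between them, against 0.965 to 0.992 in the other groups. BAC depleted 1 had 43406 Xist counts and 0 counts of 4 Y-linked genes, while the other 11 libraries had 0 to 16 Xist counts and 4812 to 10999 Y-linked counts. That is the pattern of female cells, which no BAC nondepleted library showed. For BAC depleted 1, sex and depletion therefore cannot be told apart. The 15 stromal markers summed to 52893 to 61659 CPM in BM sorted, 40080 to 43519 in BM nonsorted, 29234 to 36705 in BAC depleted and 32872 to 53913 in BAC nondepleted libraries, and all 15 averaged at least 1 CPM in each group. CPM is the usual depth-scaled unit of counts, here on library sizes scaled by edgeR's TMM method.

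The 6 genes belong to a single cluster on chromosome 14. Between Cma1 at one end and Gzmb at the other, the RefSeq annotation (used for order only) lists 15 protein-coding genes, all of them granzymes, chymases or relatives. The stretch from Mcpt8 to Gzmb holds 9 of these, in the order Mcpt8, Ctsg, Gzme, Gzmd, Gzmg, Gzmn, Gzmf, Gzmc and Gzmb, all on the minus strand. Expression in the marrow libraries was uneven along this stretch. Per kb of exon, BM sorted libraries averaged 142 ± 39.9 CPM for Gzme (SD, n = 3), 37.5 ± 17.0 for Gzmd, 34.8 ± 18.0 for Gzmc, 17.4 ± 7.05 for Mcpt8, 0.871 ± 0.617 for Gzmb and 0.0665 ± 0.0855 for Gzmf. Gzme stood above each of the other 5 genes in every BM sorted library. Gzmd and Gzmc did not differ beyond their spread.

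**Figure D1:**
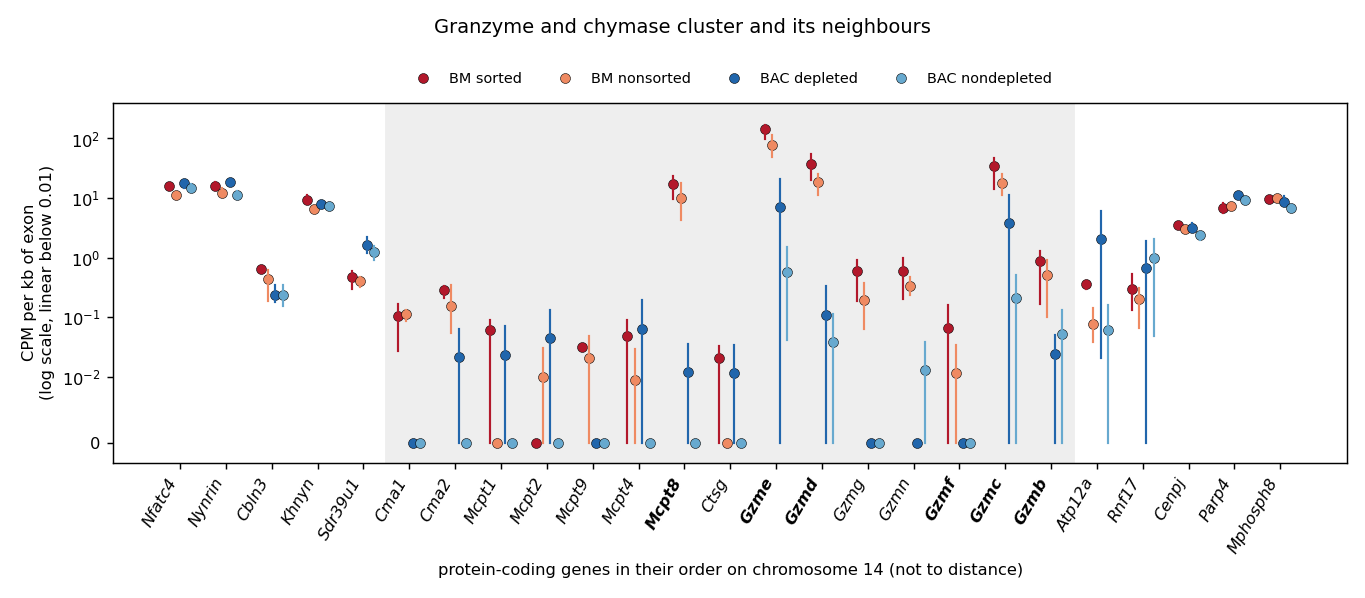
Mean level of each protein-coding gene of the cluster (grey band) and of its 5 nearest protein-coding neighbours on either side, in CPM per kb of exon on a log axis that is linear below 0.01. Genes run in chromosomal order, not to distance, points are means of 3 libraries, vertical lines run from the lowest to the highest library, and the 6 genes described are in bold. Gzme, Gzmd, Gzmc and Mcpt8 stand at 9.95 to 142 CPM per kb in the marrow groups, with near-silent genes of the cluster between them.

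Several of the granzymes are close copies of each other, which matters for how reads can be told apart. Annotated transcripts of Gzmd and Gzme were identical in 90.04% of aligned positions, and those of Gzme and Gzmg in 87.9%. Gzmc matched Gzmd, Gzme and Gzmf in 68.1% to 69.7%, Gzmb matched them and Gzmc in 44.3% to 47.1%, and Mcpt8 matched the granzymes in 37.9% to 55.8%. Of all 50-base stretches of the transcript, 21.9% in Gzmd, 20.7% in Gzme, 19.4% in Gzmf and 4.14% in Gzmc also occurred in a transcript of another gene, against 0% in Gzmb and Mcpt8. At 100 bases these shares were 0.231% in Gzmd, 6.71% in Gzmf and 0% in the other 4 genes. The read length and the handling of reads with several matches were not stated in the labels, so the split between Gzmd and Gzme is less certain than their sum, while Gzmb and Mcpt8 shared no such stretch.

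**Figure D2:**
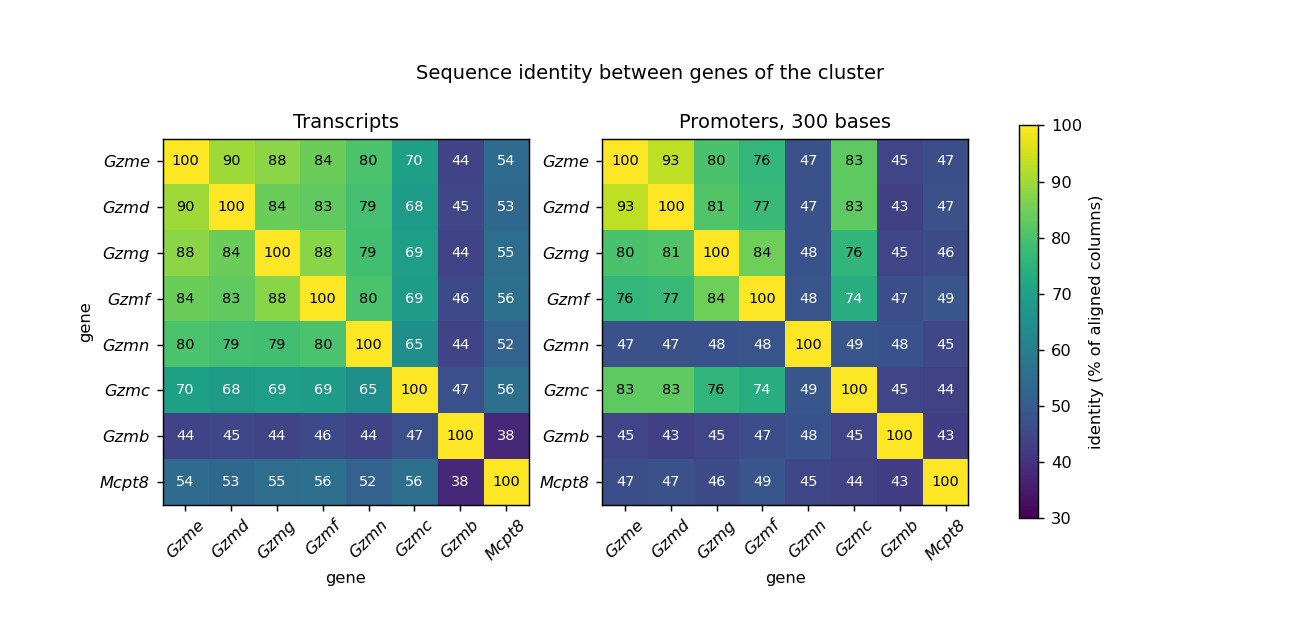
Identity between annotated transcripts (left) and between 300-base promoters (right) for the 6 genes and their neighbours Gzmg and Gzmn, in percent of aligned columns, with each gene on both axes. Gzme and Gzmd are the closest pair in both panels, at 90.04% and 93.4%, while Gzmb and Mcpt8 share at most 55.8% with any other gene shown.

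The promoters show the same family structure and are given here so that expressed and nearly silent genes of the cluster can be set side by side. Sequences are from RefSeq (GRCm38.p6, minus strand) and run from base -210 to base -1 before the annotated start, 5′ to 3′. They cover chr14:56120626-56120835 for Gzme, chr14:56132594-56132803 for Gzmd, chr14:56234658-56234867 for Gzmc, chr14:56211408-56211617 for Gzmf, chr14:56262335-56262544 for Gzmb and chr14:56085198-56085407 for Mcpt8. Capitals mark the RUNX core TGTGGT on either strand (ACCACA where it lies on the other strand) and the AP-1 motif TGANTCA.
Gzme: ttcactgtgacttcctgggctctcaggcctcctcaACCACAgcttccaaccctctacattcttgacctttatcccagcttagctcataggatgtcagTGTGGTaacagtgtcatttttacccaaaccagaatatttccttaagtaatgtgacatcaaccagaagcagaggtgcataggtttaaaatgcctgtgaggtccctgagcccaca
Gzmd: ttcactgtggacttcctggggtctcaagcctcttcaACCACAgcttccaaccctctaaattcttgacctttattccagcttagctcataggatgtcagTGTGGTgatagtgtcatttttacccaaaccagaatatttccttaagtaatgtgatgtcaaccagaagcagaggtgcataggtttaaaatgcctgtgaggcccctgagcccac
Gzmc: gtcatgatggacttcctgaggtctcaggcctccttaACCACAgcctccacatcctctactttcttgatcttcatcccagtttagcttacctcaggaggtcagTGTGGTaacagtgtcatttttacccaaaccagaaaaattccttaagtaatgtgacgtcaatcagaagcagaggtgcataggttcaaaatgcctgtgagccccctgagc
Gzmf: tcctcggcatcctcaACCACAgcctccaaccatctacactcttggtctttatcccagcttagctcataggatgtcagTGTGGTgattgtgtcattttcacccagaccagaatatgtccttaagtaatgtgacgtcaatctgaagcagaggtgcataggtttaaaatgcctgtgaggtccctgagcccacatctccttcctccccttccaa
Gzmb: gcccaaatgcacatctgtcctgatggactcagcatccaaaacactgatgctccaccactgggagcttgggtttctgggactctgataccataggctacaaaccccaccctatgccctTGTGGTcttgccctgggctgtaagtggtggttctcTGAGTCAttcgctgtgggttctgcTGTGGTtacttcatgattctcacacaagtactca
Mcpt8: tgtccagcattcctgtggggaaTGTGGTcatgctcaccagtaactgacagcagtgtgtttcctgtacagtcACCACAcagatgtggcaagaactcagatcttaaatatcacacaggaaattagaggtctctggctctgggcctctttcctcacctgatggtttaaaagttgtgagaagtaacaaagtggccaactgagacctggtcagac
Over the whole 300-base promoters, from 250 bases before the start to 50 after it, Gzmd and Gzme were 93.4% identical and Gzmc and Gzme 82.7%. Gzmf, which was close to silent, was 76.3% identical to Gzme, and Mcpt8, which was expressed, only 46.8%. Each of the 6 promoters held 2 RUNX cores, as did that of Gzmg, while that of Gzmn held 0. Cma1, Mcpt1, Mcpt4 and Ctsg, also nearly silent, held 1 each, and Mcpt9 held 0. At least 1 such core occurred in 16.8% of the 32851 mouse promoters in the table. The share of promoters with 2 was not counted. In Gzme the cores began at bases -175 and -113, in Gzmd at -174 and -112, in Gzmc at -174 and -108, in Gzmf at -195 and -133, in Mcpt8 at -188 and -139, and in Gzmb at -93 and -34. Gzmb alone of the 6 held an AP-1 motif, at base -58, which did not overlap its RUNX cores, against 7.81% of all promoters. Granzymes C to F are copies of each other, so their matches are not independent, and the nearly silent Gzmf and Gzmg held as many RUNX cores as Gzme.

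Gzme, encoding granzyme E, was the most abundant. It reached 88.4, 156 and 146 CPM in BM sorted libraries 1, 2 and 3, against 61.2, 105 and 45.1 CPM in BM nonsorted libraries. In bone-associated cells it had 0.382, 19.1 and 0 CPM in BAC depleted libraries, against 0.134, 1.38 and 0.0381 CPM in BAC nondepleted libraries. All marrow libraries were above all bone-associated ones. BM sorted 1 lay below BM nonsorted 2, so the marrow groups overlapped, and among bone-associated libraries BAC depleted 2 stood far above the rest. By mean level, Gzme ranked 1327 of 53819 genes in BM sorted and 2845 in BM nonsorted cells, against 10030 in BAC depleted and 13784 in BAC nondepleted cells.

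Gzmd, encoding granzyme D, had 19.7, 52.5 and 36.2 CPM in BM sorted libraries, against 17.4, 24.7 and 10.7 CPM in BM nonsorted libraries. It had 0, 0.318 and 0 CPM in BAC depleted libraries, against 0, 0.109 and 0 CPM in BAC nondepleted libraries, which is 9 and 3 counts in the whole groups. The marrow groups overlapped, and bone-associated cells were close to 0 throughout.

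Gzmc, encoding granzyme C, had 12.6, 41.9 and 38.9 CPM in BM sorted libraries, against 15.01, 22.3 and 10.04 CPM in BM nonsorted libraries. It had 0.191, 9.97 and 0 CPM in BAC depleted libraries, against 0, 0.109 and 0.457 CPM in BAC nondepleted libraries. BAC depleted 2, with 9.97 CPM, came within reach of BM nonsorted 3, with 10.04 CPM, so marrow and bone were only just apart for this gene.

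Mcpt8 had 9.57, 19.5 and 23.2 CPM in BM sorted libraries, against 7.90, 17.6 and 4.24 CPM in BM nonsorted libraries. In all bone-associated libraries together it had 1 count, in BAC depleted 2. The 0 counts in BAC nondepleted cells allow a level of up to 0.0359 CPM, the value of 3 counts over the group (floors and intervals cover counting error only, since amplified reads are not independent molecules). Of the 5 genes past the filter, Mcpt8 had the fewest counts in bone-associated cells.

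Gzmb was low everywhere. It had 0.235, 1.65 and 1.87 CPM in BM sorted libraries, against 0.738, 1.30 and 0.146 CPM in BM nonsorted libraries. It had 0.0318, 0.0707 and 0 CPM in BAC depleted libraries, against 0.0336, 0 and 0.191 CPM in BAC nondepleted libraries. BAC nondepleted 3 lay above BM nonsorted 3, so marrow and bone overlapped. Gzmf had 1, 5 and 0 counts in BM sorted libraries, against 0, 1 and 0 in BM nonsorted libraries, and 0 counts in all 6 bone-associated libraries.

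**Figure D3:**
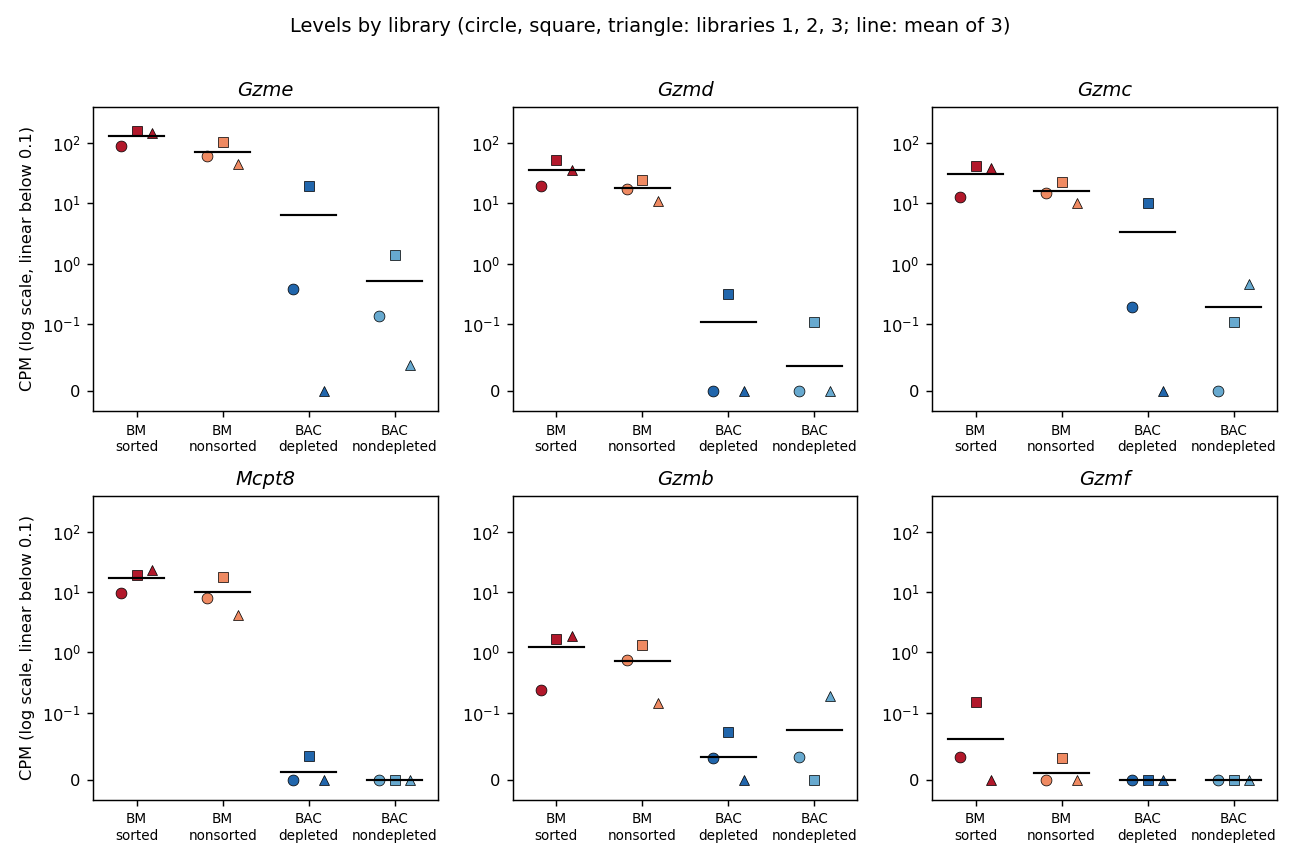
CPM of each of the 6 genes in the 12 libraries, on a log axis that is linear below 0.1. Circles, squares and triangles are libraries 1, 2 and 3 of a group and lines are group means. Gzme, Gzmd, Gzmc and Mcpt8 are high in all 6 marrow libraries, and among bone-associated libraries BAC depleted 2 alone reaches 19.1 CPM of Gzme and 9.97 CPM of Gzmc.

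The sort compared CD51+ Sca-1+ cells with the unsorted marrow culture. This is the contrast on which the genes were picked, so it is described without a test. Means were higher in BM sorted than in BM nonsorted cells for all 5 genes past the filter, with log2 fold changes of 0.88 ± 1.26 for Gzme (approximate SE), 1.04 ± 0.61 for Gzmd, 0.98 ± 1.23 for Gzmc, 0.81 ± 0.55 for Mcpt8 and 0.78 ± 0.91 for Gzmb. In a fit to the 6 marrow libraries alone the SE was 0.34 for Gzme, 0.41 for Gzmd and 0.48 for Gzmc. It hardly changed for Mcpt8 (0.54) and Gzmb (0.87), and nothing is read from these SEs. The groups overlapped for all 5, while 12.1% of the 15698 genes tested had every BM sorted library above every BM nonsorted one. BM sorted 1 was the lowest of its group and BM nonsorted 3 the lowest of its own for each of the 5 genes. Over all genes, 6.23% were called in this contrast, 0.166% as higher and 6.06% as lower in BM sorted cells. Of 16 macrophage markers, 15 were called lower in BM sorted cells. Their summed level was 13.9 to 45.4 CPM in BM sorted, against 5611 to 6368 CPM in BM nonsorted libraries. Ptprc, which encodes CD45, had 0.0402 ± 0.0457 CPM in BM sorted and 95.7 ± 10.4 CPM in BM nonsorted cells (SD, n = 3 each).

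Depletion compared bone-associated cells freed of CD45+, Ly6C+ and F4/80+ cells with nondepleted bone-associated cells. Of the 5 genes, 0 were called by edgeR's quasi-likelihood test, beside 37.3% of all genes tested, 17.4% as higher and 19.9% as lower in BAC depleted cells. Nothing is read from that count: the 5 passed the filter through the marrow libraries, Gzmd, Gzmb and Mcpt8 hold 1 to 12 counts each in the 6 bone-associated libraries, and in a fit to these 6 alone only Gzme passed the filter. Gzmc had a log2 fold change of 4.19 ± 1.702 (SE, edgeR adjusted p = 0.0773) and Gzme one of 3.65 ± 1.61 (edgeR adjusted p = 0.101). At an unadjusted p under 0.05 edgeR counted both of these, Gzmc (0.0333) and Gzme (0.0472), and DESeq2 called Gzmc (adjusted p = 0.0474) and 0 of the other 4. Gzmd had 1.48 ± 1.62, Mcpt8 1.95 ± 2.18 and Gzmb -0.95 ± 1.61, at counts too low for a test to be read. Gzmc did not pass the filter on the bone-associated libraries alone. Its p-values and calls, here and below, are therefore not valid tests of depletion, and nothing is read from them. Those of Gzme are a description.

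The higher means of Gzmc and Gzme after depletion came from BAC depleted 2. Without it, the log2 fold changes were -0.76 for Gzmc (edgeR adjusted p = 0.719) and -1.28 for Gzme (edgeR adjusted p = 0.488). With it and without BAC depleted 3, both genes were called, at 4.76 for Gzmc (edgeR adjusted p = 0.0278) and 4.21 for Gzme (edgeR adjusted p = 0.0349). Without BAC depleted 1, Gzmc was called at 4.76 (edgeR adjusted p = 0.0422). In the macrophage list BAC depleted 2 had 67.9 CPM in sum, against 26.8 and 18.9 CPM in BAC depleted 1 and 3, with Ptprc at 0 in all 3. The NK and T cell list summed to 1.41 CPM in BAC depleted 2, against 1.72 and 1.04 CPM in the other two. The part of these in the level of the granzymes was not tested.

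Marrow cells were set against bone-associated cells after purification and before it. Both contrasts use libraries on which the genes were picked, so they too are described without a test. Ratios here are of counts summed over a group and divided by its scaled library size, with a 95% counting interval. After purification, BM sorted cells had 20.0 times (18.3 to 21.8) the Gzme of BAC depleted cells, 342 times (180 to 748) the Gzmd, 9.24 times (8.18 to 10.46) the Gzmc and 1479 times (265 to 58434) the Mcpt8. Before purification, BM nonsorted cells had 136 times (100 to 187) the Gzme of BAC nondepleted cells, 486 times (166 to 2357) the Gzmd and 87.1 times (52.6 to 156) the Gzmc, and at least 272-fold higher Mcpt8. For Gzmb the ratios were 35.8 (11.98 to 176) and 9.93 (4.34 to 28.0). The smaller ratios of Gzme and Gzmc after purification follow BAC depleted 2: without it the fitted log2 fold change of BM sorted minus BAC depleted was 9.24 in place of 4.32 for Gzme and 8.14 in place of 3.19 for Gzmc. All 6 marrow libraries lay above all 6 bone-associated ones for Gzme, Gzmd, Gzmc and Mcpt8, and 11.6% of all genes tested did the same. Over all genes, 47.4% were called in the contrast after purification, 22.9% as higher and 24.6% as lower in BM sorted cells. Before it 31.7% were called, 14.9% as higher and 16.8% as lower in BM nonsorted cells.

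The genes kept similar proportions in marrow, and other ones in BAC depleted 2. Gzme made up 57.5% to 67.7% of the counts of the 6 genes in each marrow library, Gzmd 14.4% to 19.3%, Gzmc 9.67% to 15.8% and Mcpt8 6.04% to 10.3%. In BAC depleted 2, which held 834 counts of the 6 genes, Gzme made up 64.7% (95% exact binomial interval 61.4 to 68.0) and Gzmc 33.8% (30.6 to 37.1). Gzmd made up 1.08% there (0.495 to 2.04) and Mcpt8 0.120% (0.00304 to 0.666). Gzmc thus took a larger share, and Gzmd and Mcpt8 a smaller one, than in any marrow library. This is a comparison of 1 library with 6 and has no replicate. In counts, Gzmd had 9 in that library beside 540 of Gzme, its closest copy.

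**Figure D4:**
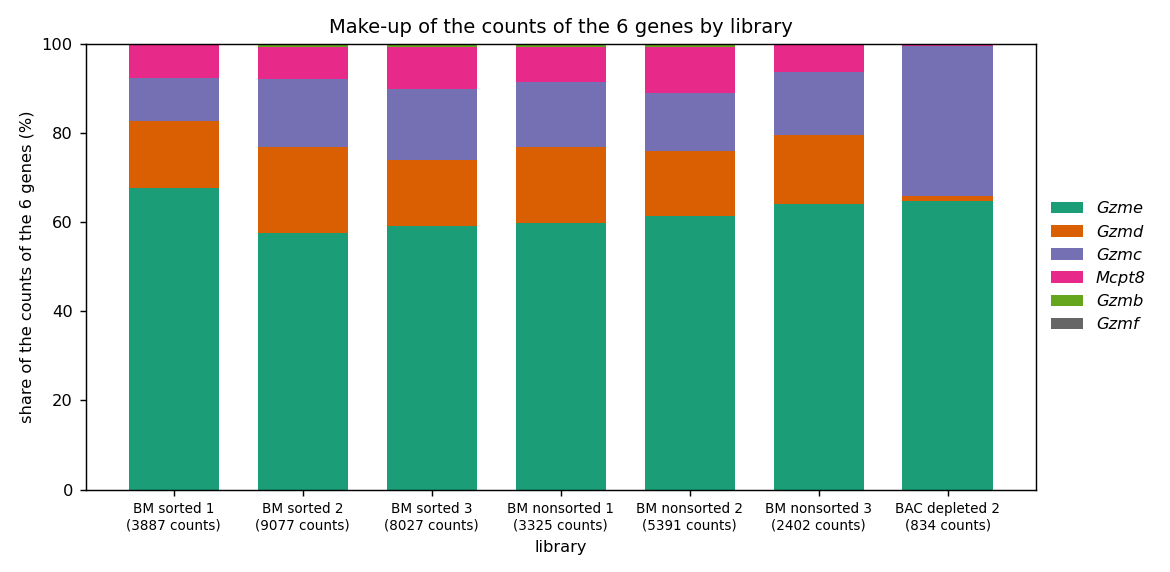
Share of each gene in the summed counts of the 6 genes, in percent, for the 6 marrow libraries and for BAC depleted 2, the only bone-associated library with more than 44 such counts; the total is under each bar. Gzme is the largest part in all 7, and in BAC depleted 2 the rest is nearly all Gzmc (33.8%), with Gzmd at 1.08% and Mcpt8 at 0.120%.

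Among the other 9 protein-coding genes of the cluster, Gzmg and Gzmn showed the same order of groups at low counts. Gzmg had 5, 28 and 21 counts in BM sorted libraries, against 11, 4 and 2 in BM nonsorted libraries, and 0 in all bone-associated libraries. Gzmn had 6, 33 and 18 counts in BM sorted libraries, against 15, 9 and 8 in BM nonsorted ones, and 1 count in bone-associated libraries, in BAC nondepleted 3. Cma2, a chymase gene, had 7, 11 and 12 counts in BM sorted libraries, against 2, 12 and 2 in BM nonsorted ones, and 2 counts in bone-associated libraries, both in BAC depleted 2. These were the only 3 of the 9 past the filter. They passed it through the marrow libraries, where they are high, so their marrow and bone levels are given with no test. Ctsg, which encodes cathepsin G of neutrophils and lies between Mcpt8 and Gzme, had 3 counts in all 12 libraries. Cma1, Mcpt1, Mcpt2, Mcpt4 and Mcpt9, chymases and related proteases known from mast cells, had 5 to 23 counts each in all.

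Of the 10 neighbours outside the cluster, 0 had all marrow libraries above all bone-associated ones, beside 11.6% of all genes tested. With 10 genes, nothing is read from that count. Nfatc4, which encodes a calcium-regulated transcription factor and lies on the Cma1 side, averaged 93.4 ± 5.53 CPM in BM sorted, 65.6 ± 7.84 in BM nonsorted, 103 ± 15.8 in BAC depleted and 86.8 ± 12.6 in BAC nondepleted cells. Sdr39u1, beside Cma1, was lower in marrow, at 1.15 ± 0.373 CPM in BM sorted and 4.09 ± 1.26 CPM in BAC depleted cells (log2 fold change -1.83 ± 0.35, edgeR adjusted p = 0.00201). Atp12a, a proton pump gene beside Gzmb, had 0.191, 24.4 and 0.0833 CPM in BAC depleted libraries, so it was highest in the library that was also highest for Gzme and Gzmc. In the other groups it had 1.17 to 1.62 CPM in BM sorted, 0.154 to 0.572 in BM nonsorted and 0 to 0.654 in BAC nondepleted libraries. Rnf17, next to it, had 0, 12.1 and 0.4999 CPM in BAC depleted libraries, but also 0.302, 5.45 and 12.96 CPM in BAC nondepleted ones. Of the granzymes on other chromosomes, Gzma had 0 counts in all libraries, and Gzmm averaged 0.335 ± 0.0571 CPM in BM sorted and 0.305 ± 0.0685 CPM in BAC depleted cells.

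The machinery with which lymphocytes store and deliver granzymes was present only in part. Prf1, encoding the pore-forming perforin, had 0 counts in all 12 libraries. Srgn, encoding serglycin, the proteoglycan that packs granzymes, had 0.302, 0.210 and 0.306 CPM in BM sorted libraries, against 33.3, 25.8 and 17.0 CPM in BM nonsorted libraries (log2 fold change -6.52 ± 0.71, edgeR adjusted p = 0.000163). It was 37.4 ± 25.2 CPM in BAC depleted cells, and lower in BM sorted than in those (-7.08 ± 0.72, edgeR adjusted p = 7.93e-05). The cells with the most granzyme counts thus had the least Srgn.

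Ctsc, the activating peptidase, had 4.93, 10.7 and 12.6 CPM in BM sorted libraries, against 218, 169 and 194 CPM in BM nonsorted libraries (log2 fold change -4.36 ± 0.41, edgeR adjusted p = 5.38e-05). It fell almost to 0 with depletion, at 0.127, 0.0354 and 0 CPM in BAC depleted libraries, against 573, 464 and 318 CPM in BAC nondepleted libraries (-12.80 ± 0.65, edgeR adjusted p = 2.93e-07). BM sorted cells had 160 times the Ctsc of BAC depleted cells (68.2 to 493, edgeR adjusted p = 3.46e-05). Ctsh, encoding cathepsin H, which can also activate granzyme B in mice, averaged 134 ± 18.4 CPM in BM sorted and 83.9 ± 28.5 CPM in BAC depleted cells. Its call there (edgeR adjusted p = 0.0414) was lost without BM sorted 2 or 3, or BAC depleted 1 or 2 (edgeR adjusted p from 0.0865 to 0.125). With only the groups compared it was lost as well (edgeR adjusted p = 0.0850). Of the 12 tested genes of the 14 listed for granule storage and release, 0 were higher and 4 lower in BM sorted than in BM nonsorted cells. These 4 were Srgn, Ctsc, and Unc13d and Stxbp2, both needed for granule fusion. The call of Stxbp2 (edgeR adjusted p = 0.0389) was lost without any single marrow library (edgeR adjusted p from 0.0699 to 0.165), and that of Unc13d (edgeR adjusted p = 0.0195) without any single one except BM nonsorted 3 (edgeR adjusted p from 0.0501 to 0.0976). Both were also lost with no low-count filter (edgeR adjusted p = 0.0994 for Stxbp2 and 0.0555 for Unc13d). In BAC depleted against BAC nondepleted cells 1 was higher and 5 were lower, and in BM sorted against BAC depleted cells 3 were higher and 3 lower. Without BAC depleted 1 these counts were 2 higher and 3 lower with depletion, and 1 higher and 3 lower in BM sorted against BAC depleted cells. Without BAC depleted 2 they were 0 and 4, and 1 and 4. The median log2 fold change of the list was -0.42, -0.51 and -0.06 in these 3 contrasts, against 0.00, 0.05 and -0.02 over all genes tested. Of all genes tested, 6.23%, 37.3% and 47.4% were called in them.

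Inhibitors of granzymes were expressed in every group. Serpinb9, whose product inhibits granzyme B, averaged 41.8 ± 4.42 CPM in BM sorted and 36.3 ± 6.80 CPM in BM nonsorted cells, and 51.0 ± 11.3 CPM in BAC depleted and 28.3 ± 7.74 CPM in BAC nondepleted cells. It was called higher after depletion (log2 fold change 0.85 ± 0.23, edgeR adjusted p = 0.0159). The call was lost without BAC depleted 3 (edgeR adjusted p = 0.0541) and with only the groups compared (edgeR adjusted p = 0.0562). Serpina3n, whose product inhibits granzyme B in the mouse, set the tissues apart in the other direction from the granzymes. It had 0.504, 0.270 and 0.123 CPM in BM sorted libraries, against 38.6, 219 and 980 CPM in BAC depleted libraries (-10.43 ± 1.35). Serpina3n passed the filter through the bone-associated libraries, where it is high, so this difference is given with no test. It also rose with depletion, since BAC nondepleted libraries had 13.2, 25.3 and 10.02 CPM (4.67 ± 1.0003, edgeR adjusted p = 0.00514). Serpinb6b averaged 28.4 ± 12.6 CPM in BM sorted and 5.66 ± 4.65 CPM in BAC depleted cells (2.34 ± 0.67, edgeR adjusted p = 0.0165). That call was lost without BM sorted 3 (edgeR adjusted p = 0.0558) and with only the groups compared (edgeR adjusted p = 0.0519). Of the 6 tested genes of the 11 listed, 0 were called with the sort in either direction (edgeR, 0 also by DESeq2, and 1 at an unadjusted p under 0.05). With depletion 2 were higher and 1 lower. In BM sorted against BAC depleted cells 1 was higher and 1 lower, the lower one being Serpina3n, from which no test is read there. The shares called over all genes tested were 6.23%, 37.3% and 47.4% in these 3 contrasts.

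Among transcription factors known to act on granzyme genes in lymphocytes, Tbx21 and Eomes were close to 0, with 6 and 9 counts in all libraries. Runx3, which drives cytotoxic genes in CD8 T cells, followed the tissue. It had 21.6, 21.9 and 21.6 CPM in BM sorted libraries, against 1.24, 0.813 and 2.50 CPM in BAC depleted libraries (log2 fold change 3.85 ± 0.36, edgeR adjusted p = 5.53e-05). BM nonsorted libraries had 19.3, 22.3 and 23.7 CPM, against 4.33, 5.74 and 3.16 CPM in BAC nondepleted libraries (2.30 ± 0.34, edgeR adjusted p = 0.00138). The lowest marrow library was thus above the highest bone-associated one. BAC depleted 2, which had the most granzyme counts of the bone-associated libraries, had the least Runx3 of all 12. A part of Runx3 in the level of the granzymes was not tested. Runx1 and Runx2, related factors of blood and bone cells, were expressed in every group. Runx1 averaged 164 ± 28.8 CPM in BM sorted and 351 ± 230 CPM in BAC depleted cells (-1.10 ± 0.38, edgeR adjusted p = 0.0383), a call lost without BAC depleted 2 (edgeR adjusted p = 0.167), without any single BM sorted library (edgeR adjusted p from 0.0534 to 0.120), with only the groups compared (edgeR adjusted p = 0.119) and with no low-count filter (edgeR adjusted p = 0.0962). Runx2 averaged 94.4 ± 15.7 CPM in BM sorted and 68.2 ± 18.5 CPM in BAC depleted cells (0.47 ± 0.25, edgeR adjusted p = 0.148).

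Jun and Junb, subunits of AP-1, ran the other way from Runx3, at 41.9 ± 12.05 and 72.7 ± 7.79 CPM in BM sorted cells, against 358 ± 288 and 637 ± 450 CPM in BAC depleted cells (edgeR adjusted p = 0.00383 for Jun and 0.00181 for Junb). Fosl1, which encodes another AP-1 subunit, was instead called higher in BM sorted than in BAC depleted cells, but that call was not stable. It was lost without BAC depleted 2 (log2 fold change 1.72, edgeR adjusted p = 0.0605) and without BM sorted 1 (1.78, edgeR adjusted p = 0.0519). With only the groups compared it was lost too (1.88, edgeR adjusted p = 0.0824). Of the 16 tested genes of the 19 listed regulators, 0 were higher and 4 lower in BM sorted than in BM nonsorted cells, and 0 were higher and 5 lower in BAC depleted than in BAC nondepleted cells (2 and 5 without BAC depleted 1). The 4 lower with the sort were Ikzf1, Irf4, Stat4 and Prdm1, factors known from blood cells, and the call of Prdm1 was lost without any single marrow library except BM sorted 1 (edgeR adjusted p from 0.0562 to 0.120). Ikzf1 had 0 counts in BM sorted and in BAC depleted cells, against 20.5 ± 3.46 CPM in BM nonsorted and 39.0 ± 5.24 CPM in BAC nondepleted cells, at least 654-fold and 1094-fold lower. In BM sorted against BAC depleted cells 3 of the 16 were higher and 5 lower, and without BAC depleted 2 these counts were 2 and 3. Over all genes tested, 6.23%, 37.3% and 47.4% were called in these 3 contrasts.

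Few markers of cells that usually make these proteases averaged at least 1 CPM in BM sorted cells. These were 1 of 15 for NK and T cells and 4 of 13 for mast cells and basophils. Of 15 NK and T cell markers, 8 had 0 counts in all 3 BM sorted libraries, among them Cd3d, Cd3e, Cd3g and Ncr1. The list summed to 3.49 to 4.26 CPM in BM sorted and 1.43 to 3.56 CPM in BM nonsorted libraries. In each of these libraries the list lay below Gzme but above Gzmb. It summed to 1.04 to 1.72 CPM in BAC depleted and 1.03 to 4.93 CPM in BAC nondepleted libraries. Trac, the constant region of the T cell receptor alpha chain, made up most of that sum in BM sorted libraries, with 2.25, 2.52 and 2.97 CPM, against 0, 0.0707 and 0 CPM in BAC depleted libraries. BM nonsorted libraries had 2.61, 2.64 and 0.644 CPM of it, against 0.0336, 0.0363 and 0.114 CPM in BAC nondepleted libraries. Trac passed the filter through the marrow libraries, so this difference too is given with no test.

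Of 13 mast cell and basophil markers, Fcer1a, Tpsb2, Tpsab1, Prss34 and Mrgprb2 had 0 counts in all 12 libraries, and Ms4a2 and Cpa3 had 7 and 20 counts in all. Fcer1a and Ms4a2 encode chains of the high-affinity IgE receptor, and Prss34 encodes another basophil protease. Fcer1g, the receptor's gamma chain, which macrophages and other leukocytes also use and which stands in the macrophage list, was present. It had 36.4, 7.31 and 2.39 CPM in BM sorted libraries, against 0.413, 0.0707 and 0.0417 CPM in BAC depleted libraries (log2 fold change 6.32 ± 1.09, edgeR adjusted p = 0.00116). It averaged 117 ± 5.05 CPM in BM nonsorted and 294 ± 43.8 CPM in BAC nondepleted cells. The list summed to 16.5 to 19.1 CPM in BM sorted and 13.1 to 23.5 CPM in BM nonsorted libraries, and was higher, at 56.4 to 107 CPM in BAC depleted and 232 to 488 CPM in BAC nondepleted libraries, where Mcpt8 was near 0. Its larger members there were Gata2 and Il1rl1, which are not confined to mast cells. Il1rl1 averaged 27.3 ± 21.0 CPM in BAC depleted and 345 ± 135 CPM in BAC nondepleted cells (-3.66 ± 0.60, edgeR adjusted p = 0.00109). Kit, the receptor of stem cell factor, had 6.21, 0.509 and 0.950 CPM in BM sorted libraries 1, 2 and 3. The whole list summed to 19.1, 18.8 and 16.5 CPM there, about the level of Mcpt8, which averaged 17.4 CPM. Il1rl1 averaged 9.05 CPM and Gata2 5.06 CPM in BM sorted cells.

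**Figure D5:**
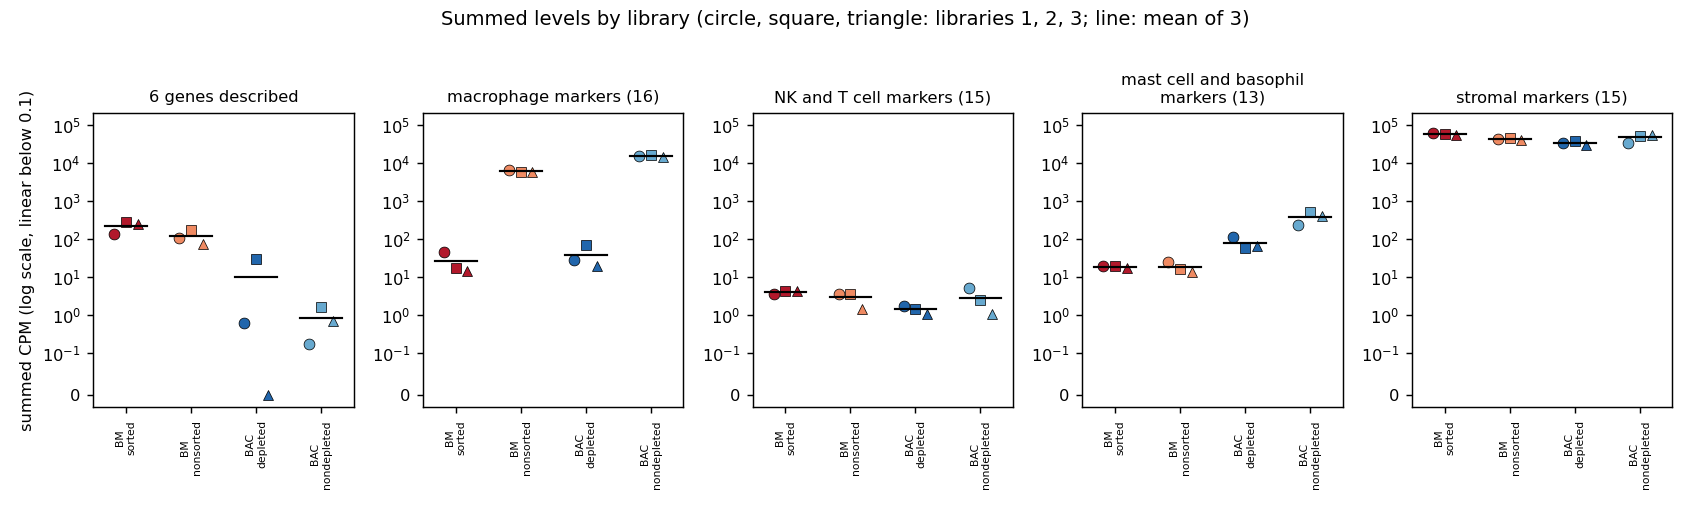
Summed CPM per library of the 6 genes described and of 4 marker lists (number of genes in brackets), on log axes that are linear below 0.1. Circles, squares and triangles are libraries 1, 2 and 3 of a group and lines are group means. The 6 genes sum to 130 to 272 CPM in BM sorted and 70.3 to 171 CPM in BM nonsorted libraries, while macrophage markers sum to 13.9 to 45.4 and 5611 to 6368 CPM in these groups and NK and T cell markers to at most 4.93 CPM in any library.

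The list of substrates held extracellular matrix and junction genes whose products granzyme B can cleave. Of 8 tested genes of the 10 listed, 0 were called with the sort (edgeR, 0 also by DESeq2 and at an unadjusted p under 0.05), and 1 was higher and 1 lower with depletion. In BM sorted against BAC depleted cells 1 was higher and 2 were lower, and without BAC depleted 2 these counts were 3 and 3. Beside these counts, 6.23%, 37.3% and 47.4% of all genes tested were called with the sort, with depletion and in this last contrast. Dcn, encoding decorin, averaged 1.90 ± 1.01 CPM in BM sorted and 802 ± 376 CPM in BAC depleted cells (log2 fold change -8.71 ± 1.05, edgeR adjusted p = 0.000183). Lama5, encoding a laminin chain, averaged 120 ± 19.0 CPM in BM sorted and 8.20 ± 0.826 CPM in BAC depleted cells (3.87 ± 0.27, edgeR adjusted p = 2.20e-05). Fn1, encoding fibronectin, was abundant in every group, at 16662 ± 3111 CPM in BM sorted and 34226 ± 24285 CPM in BAC depleted cells.

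Likeness to the granzyme pattern was measured as the root mean square difference between a gene's log2 CPM over the 12 libraries, centred on its own mean, and the mean of the centred values of the 5 genes past the filter. Among 10033 genes with at least 5 CPM in BM sorted cells, the 5 closest were Car8 (0.72 log2 units), Mcam (0.75), Cacna1c (0.76), Abcc9 (0.81) and Wnt4 (0.89), and the 5 genes themselves stood at 0.86 to 1.96. Car8, a carbonic anhydrase relative, had 9.40, 32.3 and 36.2 CPM in BM sorted libraries, 28.9, 27.5 and 15.01 in BM nonsorted, 0.0318, 2.51 and 0 in BAC depleted and 0, 0.109 and 0.0381 in BAC nondepleted libraries. Mcam, encoding the adhesion molecule CD146 of pericytes and marrow stromal cells, averaged 92.7 ± 27.4 CPM in BM sorted cells, 93.0 ± 48.2 in BM nonsorted, 3.47 ± 2.697 in BAC depleted and 1.46 ± 0.280 in BAC nondepleted cells. Abcc9, a potassium channel subunit also known from pericytes, averaged 17.1 ± 5.30, 6.39 ± 4.15, 0.127 ± 0.0853 and 0 CPM in the same order of groups. In each of Car8, Mcam, Cacna1c, Abcc9 and Wnt4 the highest bone-associated library was BAC depleted 2, as for Gzme, Gzmd, Gzmc and Mcpt8 (1 count). For Gzmb it was BAC nondepleted 3. These 5 closest genes were picked for likeness over the same libraries, so a shared peak there is partly built in and nothing is read from it. The likeness is a description of these 12 libraries, which share their tissue contrast, and carries no p.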

How the data were processed

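Bulk RNA-seq was analysed from 12 mouse libraries, 3 in each of 4 groups assigned from the sample titles. The low-input kit took 50 ng of column-purified RNA, per the labels' protocols. The deposited values are raw read counts per gene. The submitters' processing notes list Subread 2.0.1 (featureCounts), MultiQC 1.7, STAR 2.7.9a and build GRCm39. Its annotation, strand setting and treatment of multiply matching reads were not stated there.

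The tests used R 4.3.3 and edgeR 4.0.16, with TMM scaling, filterByExpr on the groups (15698 of 53819 genes tested), 1 mean per group over all 12 libraries, and the quasi-likelihood F test with robust dispersions and 8 residual degrees of freedom. Within a contrast, Benjamini-Hochberg adjustment covered every gene tested, with calls made below 0.05. SEs were derived from F and the fitted fold change, and are unreliable near 0 counts. With 0 counts in a group, a fold is a bound against 3 counts over the group. Members of the gene lists other than the 6 genes were tested in all 4 contrasts. No marrow against bone test is given for Gzmg, Gzmn, Cma2 and Trac, which passed the filter through marrow. The same holds for Serpina3n, which passed it through bone. List calls without BAC depleted 1 or 2 were chosen after seeing the data. The 6 genes and all lists were chosen with earlier results of these data known. Named genes were the 6, the cluster and its neighbours, and the 5 most alike. List members called in a contrast were named too, up to 3 each way, or otherwise the 2 most abundant. Trac, Tbx21, Eomes, Kit, Fn1, Ptprc, Fcer1g, Ctsh, Runx2 and Fosl1 were also named after their values were seen, as were genes at 0.

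Libraries of a group differed by more than sampling noise (chi-square per degree of freedom of at least 15.2), so each was counted once. Exonic lengths and transcripts came from GENCODE M21 and promoters from RefSeq, both of another build than the counts, so only names, lengths, order and sequence were used. Identity is from global alignment of the first protein-coding transcript of each gene with Biopython 1.88. Alternatives were DESeq2 1.42.0, other scalings and filters, fits to the compared groups alone, a replicate block, a sum over 6 granzyme copies, and leaving out each library. The fitting code was tested on simulated counts.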

Additional observations from a re-analysis of the deposited data

How the results depend on the processing

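The tissue contrasts of Gzmb, Gzmc, Gzmd, Gzme and Mcpt8, and their higher means in BM sorted than in BM nonsorted cells, kept their direction under each alternative that could be fitted. The depletion contrast did not. Without BAC depleted 2 the log2 fold changes turned to -0.76 for Gzmc, -3.28 for Gzmd and -1.28 for Gzme. Without BAC nondepleted 3 the log2 fold change of Gzmb turned to 0.88. Leaving out 1 library at a time, they ran from -1.81 to 0.88 for Gzmb, -0.76 to 5.90 for Gzmc, -3.28 to 4.75 for Gzmd and -1.28 to 6.12 for Gzme. Without BAC depleted 2, Mcpt8 has 0 counts there and gives no value. Counts of called genes moved by more than 1.5 times in these cases. In BAC depleted minus BAC nondepleted, 3556 genes were called with only the groups compared, against 5863, and the log2 fold change of Gzme was 3.67 ± 2.27 (edgeR adjusted p = 0.275). In BM nonsorted minus BAC nondepleted, 4980 genes were called, and leaving out 1 library at a time gave 2949 (without BM nonsorted 2) to 4188 (without BAC nondepleted 3), with 3077 and 3197 without BAC nondepleted 2 and 1. The cause was not tested. For the 14 genes of granule storage and release, calls with depletion numbered 2 with only the groups compared, against 6, and in BM sorted minus BAC depleted 1 was higher and 3 lower, against 3 and 3, as were 1 and 3 of the 12 regulators then tested, against 3 and 5 of 16, alternatives chosen after seeing the data. With Gzmc, Gzmd, Gzme, Gzmf, Gzmg and Gzmn summed as 1 feature, the fold change of BM sorted minus BAC depleted was 4.31, against 8.34 for Gzmd alone, since Gzme makes up most of the sum. The replicate numbers did not pair the libraries: deviations of same-numbered libraries correlated at -0.22 to 0.24, 2, 4, 5 and 0 of 6 libraries in the 4 contrasts were most alike to their own number, and with the replicate block 882, 5434, 7065 and 4572 genes were called in the 4 contrasts, against 978, 5863, 7447 and 4980. With that block the calls of Runx1 in BM sorted minus BAC depleted (edgeR adjusted p = 0.0764) and of Stxbp2 with the sort (edgeR adjusted p = 0.0697) were lost. Some alternatives do not hold every gene: a stricter filter or a fit to 2 groups leaves out low genes, and Gzmf. Depth limits Gzmb and Gzmf, since 3 counts in a library stand for 0.0878 to 0.125 CPM.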
